A study of Homo sapiens with 6 samples.

Results

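Primate-lineage LINE-1 elements were followed locus by locus in SW480, a long-established cell line from a human colon adenocarcinoma. The members were all transposable element (TE) loci annotated as L1HS or as an L1PA subfamily that had at least 1 assigned fragment in any of the 6 libraries, which gave 23299 of 728165 repeat loci. Of these, 4809 were at least 5500 bp long and are called full-length here, and 14354 had fragments on their own strand. The cells stably carried a lentiviral CMV-promoter construct, kept under puromycin selection, that encoded either the fluorescent protein Clover (control, n = 3) or Z18trunc, a truncated form of the nuclear RNA surveillance factor ZC3H18 (n = 3). The construct was overexpressed on top of the endogenous gene, lines were made in triplicate, and polyadenylated RNA was sequenced with strand information.

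LINE-1 elements are retrotransposons that are transcribed from a promoter at their own 5′ end and copied back into the genome through the proteins they encode. L1HS is the youngest human subfamily and holds the copies that can still move, while L1PA2 and higher numbers are successively older primate families that no longer do. The L1 5′ end also carries an antisense promoter, from which RNA runs outward over the element's 5′ end and into neighbouring DNA. ZC3H18 links the cap of nuclear RNAs to the NEXT and PAXT complexes, adaptors that hand unwanted RNA to the exosome.

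The 5′ end is shown first because it is where LINE-1 transcription starts. The first 30 bases of an abundant full-length locus and of one that passed the test are given from hg38, on the strand of the element, with the letters AAGATGG, the core of a YY1 site known at the LINE-1 start, in capitals.
L1PA5 in MYO3B, chr2:170628642-170628671, minus strand: ccAAGATGGccgaataggcacagctccagt
L1PA6 in SLC38A1, chr12:46196057-46196086, minus strand: ttccaagatagccaaataggaacagctctg
The SLC38A1 element did not hold these letters in its first 60 bases.

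Across the 4809 full-length members, 79.6% held AAGATGG within the first 60 bases of the element, and none held its reverse complement CCATCTT there. The share was 93.8% of 307 L1HS, 91.7% of 989 L1PA2, 82.1% of 1231 L1PA3, 73.5% of 570 L1PA5 and 59.0% of 293 L1PA7 loci. It was 11.9% of 143 older L1 loci (L1PB and L1M) of the same length and 0.0416% of the members' last 60 bases. In the last 60 bases of 35116 RefSeq promoter windows (GRCh38.p14, 10 bases before to 50 after the gene start) the shares were 1.73% for AAGATGG and 0.626% for CCATCTT. Among full-length members, own-strand fragments were assigned to 78.8% of loci with the motif and 68.9% of loci without it. Within L1PA5 the order was the other way, at 67.1% and 69.5%, and within L1HS the values were 95.5% and 89.5%. The direction thus differed between subfamilies, and these shares were not tested.

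Uniquely mapped fragments made up 35.6% of the own-strand counts of L1HS, 44.9% of L1PA2, 52.5% of L1PA3 and 65.0% of L1PA5, but 41.2% of L1PA6. The rest had been divided among loci by the authors' estimation step, so single-locus values with few uniquely mapped fragments are the least certain. This share also varied from locus to locus, and in some copies of older families named below it was 0%.

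Most of these loci were seen only sparsely. Of the loci with own-strand fragments, 51.3% had 1 or fewer counts over all libraries, 8038 were seen in 1 library and 849 in all 6. Detection ranged from 4249 to 4821 own-strand loci per Clover library and from 4541 to 5951 per Z18trunc library, highest in Z18trunc replicate 3. The 10 loci with the most counts held 18.6% of the mean level. Among all members, 9617 lay outside annotated genes, 6100 inside a gene on the same strand and 7582 only inside genes on the other strand, and 1029 overlapped an exon. Fragments from an element inside a gene on its own strand can belong to the host transcript, and the files do not separate the sources.

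Depth was similar between groups, at 18226033 to 22463310 aligned fragments per library, and a count of 0 allows up to 0.134 to 0.165 counts per 1000000 aligned fragments (CPM), covering counting error only. ZC3H18 served as the check of the labels with 57.2 ± 5.39 TPM in the Clover lines and 763 ± 31.2 TPM in the Z18trunc lines (SD, n = 3 each), where TPM is the transcript level per 1000000 transcripts. Of 12 colon epithelium markers, 8 reached 1 TPM, with KRT8 at 9937 ± 213 TPM in Clover, whereas CDX1, LGR5 and CEACAM5 were listed at 0. Of 6 melanocyte markers 2 reached 1 TPM (highest value 3.60 TPM), as did 1 of 3 fibroblast markers (highest 1.55 TPM), 0 of 3 leukocyte markers and 0 of 2 endothelial markers. The summed epithelial markers were 23480 to 25100 TPM in Clover and 23050 to 24160 TPM in Z18trunc.

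Own-strand RNA from the members was higher in all 3 Z18trunc libraries than in any Clover library. The summed level was 715, 718 and 666 CPM in the Clover libraries and 764, 825 and 1073 CPM in the Z18trunc libraries. The means were 699.7 ± 29.5 CPM (SD, n = 3) and 887 ± 164 CPM (SD, n = 3), a log2 ratio of 0.34. The groups did not overlap, and the exact two-sided permutation p was 0.1, the smallest that 3 against 3 libraries allows. Z18trunc replicate 3 stood highest, and without it the log2 ratio was 0.18, still with no overlap. In bulk RNA, more cells with such RNA and more RNA per cell cannot be told apart.

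Full-length loci alone gave 238, 234 and 218 CPM in Clover and 266, 278 and 370 CPM in Z18trunc. Their log2 ratio was 0.40 (exact permutation p = 0.1, no overlap), and 0.24 without Z18trunc replicate 3. Shorter loci went from 469.5 ± 19.3 to 583 ± 107 CPM (SD, n = 3 each), again without overlap (log2 ratio 0.31, and 0.15 without Z18trunc replicate 3). Setting the sums against the TE counts of both strands in the same library brought the log2 ratios to 0.16 for all members and 0.22 for full-length loci, both without overlap, whereas for shorter loci it was 0.13 with the groups overlapping (exact permutation p = 0.2). Set against opposite-strand TE counts outside exons alone, the sums of all members and of full-length loci overlap between groups.

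**Figure D1:**
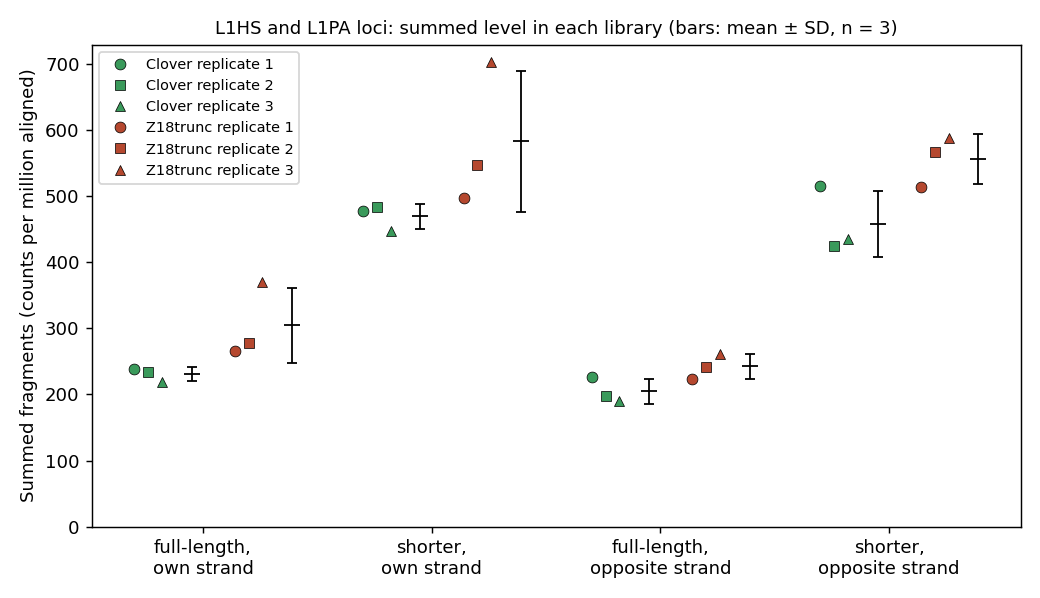
Summed fragments of L1HS and L1PA loci (vertical axis, counts per 1000000 aligned fragments) for full-length and shorter loci on each strand, 1 point per library with the group mean and SD beside it. On the own strand all 3 Z18trunc libraries lie above all 3 Clover libraries, from 266 against at most 238 CPM for full-length loci, whereas on the opposite strand Clover replicate 1 lies within the Z18trunc range.

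Sums were higher in Z18trunc both outside genes and inside genes on the same strand. Loci outside genes summed to 208, 209 and 201 CPM in Clover and 223, 237 and 314 CPM in Z18trunc, a log2 ratio of 0.33 without overlap. Genes here are the deposited spans, and some loci outside them lie inside GENCODE genes, such as an L1HS copy that overlaps CSTL1. Full-length loci outside genes gave 60.6, 60.2 and 57.0 CPM against 69.2, 72.1 and 104 CPM, a log2 ratio of 0.46 (exact permutation p = 0.1). Loci inside a gene on the same strand carried more of the counts, 409 ± 20.5 CPM in Clover and 523 ± 94.3 CPM in Z18trunc (SD, n = 3 each), with a log2 ratio of 0.36 and no overlap. Without Z18trunc replicate 3 these 3 ratios were 0.16 outside genes, 0.25 for full-length loci outside genes and 0.20 inside same-strand genes. For loci only inside genes on the other strand, the groups overlapped at 84.8 ± 5.79 and 105 ± 20.4 CPM (SD, n = 3 each).

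Sums were higher in Z18trunc over every range of sequence divergence. Loci whose sequence differed from their consensus by under 20 per 1000 bases summed to 66.5 ± 2.38 CPM in Clover and 90.8 ± 18.8 CPM in Z18trunc (SD, n = 3 each; log2 ratio 0.45). The 3 following ranges, 20 to under 50, 50 to under 80 and 80 to under 120 per 1000 bases, had log2 ratios of 0.37, 0.38 and 0.24. At 120 or more per 1000 bases the log2 ratio was 0.29. In each range the groups did not overlap, and no test compared the ranges with each other. Without Z18trunc replicate 3, left out after the values had been seen, the 5 ratios were 0.27, 0.19, 0.25, 0.09 and 0.12 in the same order.

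Ratios within a library, which do not depend on library size, asked whether these loci moved more than other LINE-1 copies. The log2 ratio of member counts to older L1 counts was -1.97, -2.02 and -1.95 in Clover and -1.94, -1.92 and -1.81 in Z18trunc. The difference was 0.09 without overlap (exact permutation p = 0.1) and 0.05 without Z18trunc replicate 3, but the groups overlapped with uniquely mapped counts (0.08, p = 0.2) and without loci that overlap exons (0.08, p = 0.3; exact permutation tests). Full-length loci were higher relative to shorter ones by 0.09 (exact permutation p = 0.1, no overlap), and with uniquely mapped counts the difference was 0.01 (p = 0.9) with the groups overlapping. Young loci, L1HS and L1PA2 to L1PA4, set against the other L1PA subfamilies differed by 0.06 with overlap (exact permutation p = 0.2), and by -0.0049 without the 10 loci with most counts in each set. The full-length own-strand to opposite-strand ratio differed by 0.14 with overlap (exact permutation p = 0.3).

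All 18 subfamilies had a higher own-strand sum in Z18trunc, and 2 of them passed the test. L1HS went from 31.4, 32.7 and 35.0 CPM in Clover to 40.3, 40.1 and 53.8 CPM in Z18trunc (log2 change 0.44, SE 0.11, edgeR adjusted p = 0.046). L1PA5, an older family with no mobile copies, went from 85.2, 82.3 and 77.0 to 92.5, 103 and 126 CPM (log2 change 0.40, SE 0.10, edgeR adjusted p = 0.046). Neither overlapped between groups. Over all 898 TE subfamilies tested, 1.89% passed. With uniquely mapped counts L1PA5 passed (log2 change 0.40, edgeR adjusted p = 0.0081) and L1HS did not (log2 change 0.37, edgeR adjusted p = 0.056). Neither member subfamily passed when any 1 Clover library or Z18trunc replicate 3 was left out. Without Z18trunc replicate 3 the log2 changes were 0.28 for L1HS and 0.26 for L1PA5, while without Z18trunc replicate 1 the number of member subfamilies that passed was 13.

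At an unadjusted p under 0.05, 13 of the 18 were higher, where 24.6% of all subfamilies were. Leaving out Z18trunc replicate 3 brought these to 7 of the 18 and 138 of the 898, and L1PA11 then turned lower (-0.03). In 8 of the 18 all Z18trunc libraries lay above all Clover libraries, where 27.7% of all subfamilies did so. The 8 were L1HS, L1PA2, L1PA3, L1PA5, L1PA6, L1PA7, L1PA10 and L1PA12. L1PA2 had 60.3, 65.2 and 57.0 CPM against 68.4, 71.0 and 105 CPM (log2 change 0.42, SE 0.12, edgeR adjusted p = 0.064), and its log2 change was 0.20 without Z18trunc replicate 3. L1PA10 went from 27.8 ± 2.38 to 37.0 ± 5.27 CPM and L1PA12 from 15.4 ± 1.20 to 20.1 ± 1.53 CPM (SD, n = 3 each). The smallest log2 changes were 0.12 for L1PA17 and 0.19 for L1PA11, with the groups overlapping in both.

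The median log2 change was 0.33 over the 18 subfamilies and 0.21 over all 898, and 0.17 and 0.14 without Z18trunc replicate 3. TMM scaling, which centres the bulk of TE subfamilies, brought the overall median to 0.01 and that of the members to 0.12. Under it 16 of the 18 stayed higher, L1PA11 and L1PA17 turned lower, and 0 passed. With library sizes taken from opposite-strand TE counts outside exons, 12 of the 18 were higher, while L1PA6, L1PA8, L1PA11, L1PA14, L1PA15 and L1PA17 were lower, and 0 passed.

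**Figure D2:**
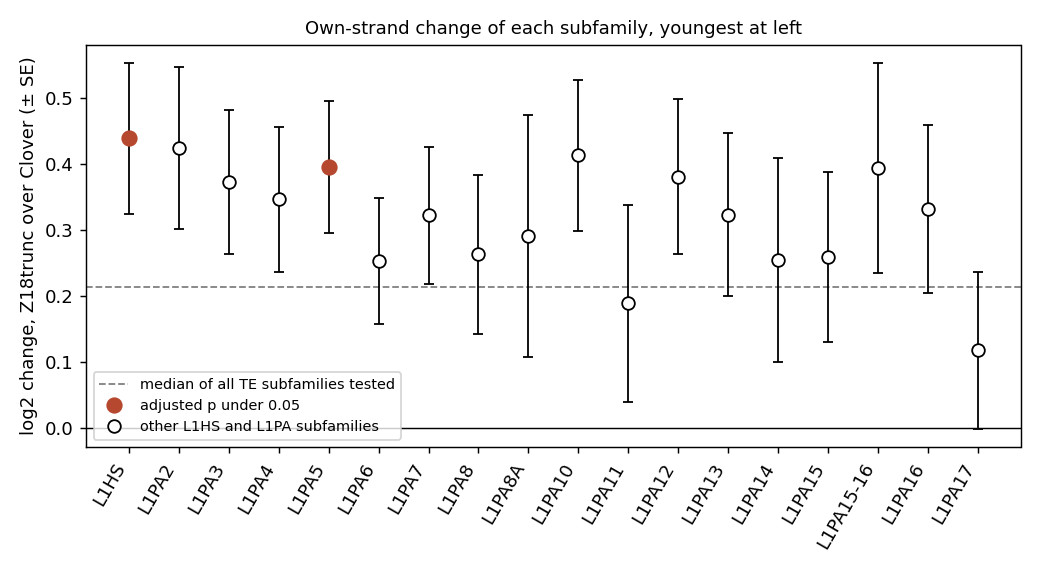
Own-strand log2 change between Z18trunc and Clover (vertical axis, edgeR, ± SE) for each L1HS and L1PA subfamily along the horizontal axis, with filled points at an adjusted p under 0.05 and a dashed line at the median of all TE subfamilies tested. All 18 points lie above 0 with aligned fragments as library size, and L1HS (0.44) and L1PA5 (0.40) are filled, whereas L1PA11 and L1PA17 fall below 0 under TMM scaling.

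At single loci, 462 members, 196 of them full-length, had the 30 counts over the 6 libraries required for a test, and 4 passed, all higher in Z18trunc. Over all 12453 TE loci tested, 0.201% passed. At an unadjusted p under 0.05, 64 of the 462 members (13.9%) were higher and 1 (0.216%) lower, where 8.17% and 1.77% of all loci were. Under TMM scaling these counts were 40 and 5 members, against 485 and 569 of all loci, and 0 members passed. The median log2 change was 0.37 over the members tested, 0.27 over older L1 loci and 0.17 over all loci. Without Z18trunc replicate 3 it was 0.20 over the members and 0.13 over all loci, and at an unadjusted p under 0.05 there were 36 higher and 5 lower members beside 736 higher and 235 lower loci in all. Full-length members had a median of 0.42 and shorter ones 0.32. Of the 25 L1HS loci tested, 21 had a log2 change above 0, 3 were higher at an unadjusted p under 0.05 and 0 passed the adjustment.

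Of the 4 loci that passed, only the element in SLC38A1 could be placed mostly by uniquely mapped fragments. This L1PA6 (chr12:46189949-46196086, minus strand), which overlaps an exon of SLC38A1, a glutamine transporter gene on the same strand, had 6.10, 4.76 and 5.55 CPM in Clover and 8.15, 8.83 and 9.24 CPM in Z18trunc. Its log2 change was 0.67 (SE 0.15, edgeR adjusted p = 0.038), and 63.8% of its counts were uniquely mapped. SLC38A1 itself had 60.9 ± 8.07 TPM in Clover and 89.5 ± 11.8 TPM in Z18trunc (SD, n = 3 each; limma log2 change 0.55, adjusted p = 0.081). How much of the element's RNA is host transcript was not tested.

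The second full-length locus that passed belongs to a near-identical pair on chromosome 2. Both are L1PA6, at chr2:109952957-109959093 (plus strand) and chr2:110412396-110418532 (minus strand). Over 6137 bases the copies differed at 3 positions (identity 99.95%). The minus-strand copy had 2.51, 2.25 and 2.33 CPM in Clover and 4.03, 3.67 and 5.20 CPM in Z18trunc (log2 change 0.86, SE 0.20, edgeR adjusted p = 0.048). Its plus-strand copy had 4.78, 3.07 and 4.39 CPM against 6.58, 5.26 and 7.27 CPM (log2 change 0.64, SE 0.18, edgeR adjusted p = 0.13). Uniquely mapped fragments were 8.26% and 0% of their counts, so the division between the copies is uncertain, though both were higher in every Z18trunc library. Both copies lie inside deposited genes on the same strand, among them LIMS3-LOC440895. That gene had 9.665 ± 2.147 TPM in Clover and 13.66 ± 2.918 TPM in Z18trunc (SD, n = 3 each; limma log2 change 0.46, adjusted p = 0.17). How much of the copies' RNA is host transcript was not tested.

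The other two loci that passed lie next to each other on chromosome 2. An L1PA10 fragment (chr2:97276991-97278935, plus strand, 1945 bp), within the deposited span of LOC100506076, had 1.42, 1.21 and 1.51 CPM in Clover and 2.80, 2.42 and 3.79 CPM in Z18trunc (log2 change 1.12, SE 0.24, edgeR adjusted p = 0.024). An L1PA12 fragment (chr2:97271352-97275128, plus strand, 3777 bp), outside annotated genes, had 1.11, 1.09 and 1.12 CPM against 2.41, 2.42 and 2.58 CPM (log2 change 1.15, SE 0.25, edgeR adjusted p = 0.028). Neither overlapped between groups, but uniquely mapped fragments were 14.0% and 0% of their counts. None of the 4 loci passed when Clover replicate 2 or 3 or Z18trunc replicate 1 or 3 was left out, with TMM scaling or with DESeq2, and none with uniquely mapped counts, on which the L1PA12 fragment could not be tested. Without Clover replicate 1 only the SLC38A1 element of the 4 passed (edgeR adjusted p = 0.036), and without Z18trunc replicate 2 only the L1PA10 fragment (edgeR adjusted p = 0.029).

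The most abundant full-length loci had log2 changes on both sides of 0. Among full-length members, whose lengths are close to each other, the highest own-strand level belonged to an L1PA5 (chr2:170622574-170628671, minus strand) in an intron of MYO3B, a myosin gene on the other strand. It ranged from 18.4 to 23.2 CPM in Clover and from 19.0 to 25.1 CPM in Z18trunc, with the groups overlapping (log2 change 0.14, SE 0.12). An L1PA7 (chr12:4671945-4678293, plus strand) in an intron of NDUFA9, which encodes a subunit of respiratory complex I, was the reverse of the general pattern. It had 10.0, 8.89 and 9.63 CPM in Clover and 7.88, 7.85 and 8.86 CPM in Z18trunc, below every Clover library but not past the test (log2 change -0.21, SE 0.14, edgeR adjusted p = 0.65).

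Other abundant loci lay in introns of genes on the same strand. An L1PA6 (chr3:136126021-136132173, plus strand) in PPP2R3A, a phosphatase regulatory subunit gene, had 3.92 ± 0.110 and 4.13 ± 1.37 CPM (SD, n = 3 each), and the groups overlapped. An L1PA4 (chr10:93520974-93527095, plus strand) in CEP55, needed for the last step of cell division, had 2.60, 3.19 and 2.90 CPM in Clover against 4.28, 3.79 and 3.52 CPM in Z18trunc without overlap (log2 change 0.42, SE 0.19, edgeR adjusted p = 0.45).

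L1HS was led by a full-length copy in an intron of RB1, the retinoblastoma tumour suppressor gene (chr13:48465556-48471566, plus strand, same strand as the gene). It had 2.68, 2.45 and 2.17 CPM in Clover and 3.98, 4.55 and 3.45 CPM in Z18trunc, with no overlap (log2 change 0.70, SE 0.20, edgeR adjusted p = 0.15). Uniquely mapped fragments were 54.0% of its counts, and RB1 had 25.8 ± 3.49 TPM in Clover and 37.6 ± 1.28 TPM in Z18trunc (SD, n = 3 each; limma log2 change 0.54, adjusted p = 0.077). The copy on chromosome 20 (chr20:23426109-23432140, plus strand) overlaps an exon of CSTL1, a cystatin-like gene, in GENCODE 44 and no gene span in the deposited tables. It had 1.27, 0.839 and 2.16 CPM against 2.33, 1.82 and 2.31 CPM, and the groups overlapped.

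Further L1HS copies were lower still. The L1HS in an intron of TMLHE, a carnitine synthesis gene (chrX:155516017-155522048, minus strand), had 0.906 ± 0.440 CPM in Clover and 1.41 ± 0.333 CPM in Z18trunc. The copies at chr9:95697586-95703604 (plus strand) and chr7:25041861-25047891 (minus strand), neither inside a gene of the deposited tables, had 0.591 ± 0.172 and 0.569 ± 0.0444 CPM in Clover and 0.977 ± 0.246 and 0.830 ± 0.338 CPM in Z18trunc (SD, n = 3 each). In all 3 the groups overlapped. Summed over the 292 full-length L1HS loci with own-strand fragments, the level was 22.6, 23.9 and 24.2 CPM in Clover and 31.7, 30.3 and 39.3 CPM in Z18trunc, a log2 ratio of 0.52 without overlap (exact permutation p = 0.1).

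**Figure D3:**
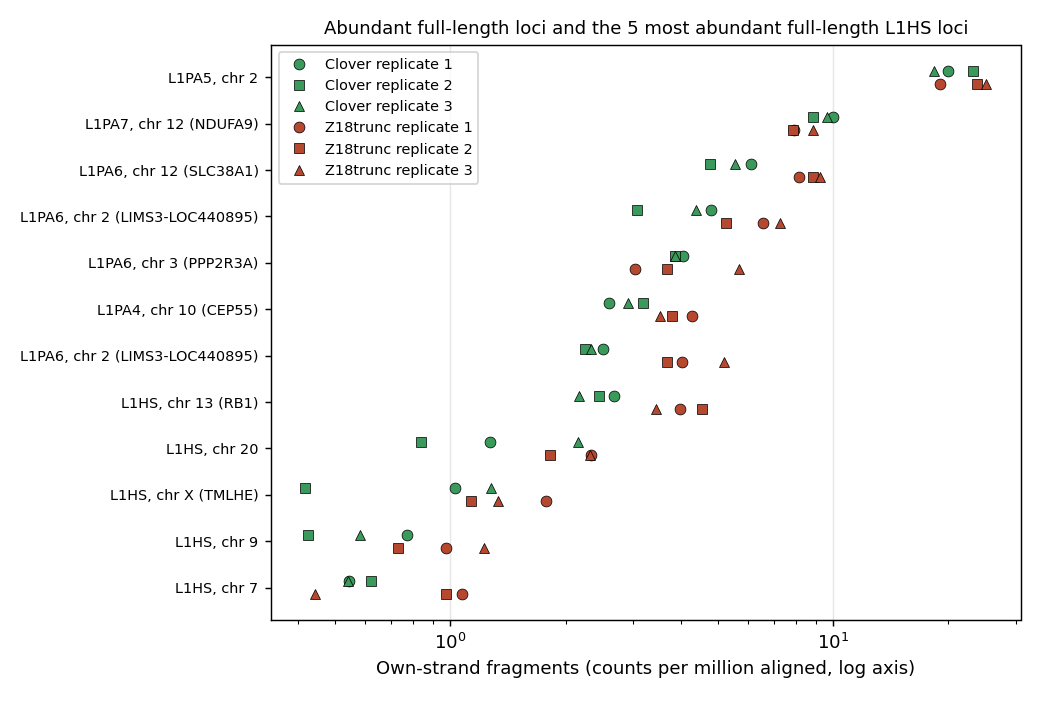
Own-strand fragments of single full-length loci (horizontal axis, counts per 1000000 aligned fragments on a log axis), 1 point per library, with the subfamily, the chromosome and the deposited gene on the same strand at the left. The upper 7 lines are full-length loci with the highest means and the lower 5 the L1HS loci with the highest mean, from 20.5 CPM in Clover for the L1PA5 on chromosome 2 to 0.569 CPM for the L1HS on chromosome 7.

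The L1HS in TTC28 is a copy widely known to be mobile in human tumours, and it lies against the direction of its host gene (chr22:28663284-28669315, plus strand). It was present in every library, at 0.650, 0.442 and 0.518 CPM in Clover and 0.722, 0.546 and 0.726 CPM in Z18trunc, and the groups overlapped (log2 change 0.30, SE 0.41). Those values rest on 8.45 to 16.2 estimated counts per library. On the opposite strand it had at most 1 count, and TTC28 was at most 0.00850 TPM in the group means. The L1PA2 in MET, the hepatocyte growth factor receptor gene (chr7:116718498-116724489, minus strand), overlaps an exon of MET in GENCODE 44 and is known as the source of an antisense transcript into MET. It had 0 to 3.18 own-strand and 0 to 1.54 opposite-strand counts per library, at or near the limit that a count of 0 allows, with MET at 4.12 ± 1.53 TPM in Clover and 5.21 ± 0.414 TPM in Z18trunc (SD, n = 3 each).

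Of the 10 members with the smallest p-values, 5 others did not pass the adjustment and had log2 changes between 0.88 and 1.36. An L1PA6 in an intron of ANO6, a phospholipid scramblase gene (chr12:45391884-45397988, plus strand), had 0.712, 0.679 and 0.917 CPM in Clover and 1.91, 1.48 and 1.86 CPM in Z18trunc (edgeR adjusted p = 0.085). Its host had 20.4 ± 3.09 and 30.8 ± 2.15 TPM (SD, n = 3 each). An L1PA5 in KDM7A, a histone demethylase gene (chr7:140103316-140109396, minus strand), went from 0.464 ± 0.150 to 1.19 ± 0.222 CPM, and an L1PA3 in ZDHHC13, a palmitoyltransferase gene (chr11:19135061-19141079, plus strand), from 0.569 ± 0.0426 to 1.41 ± 0.486 CPM (SD, n = 3 each). An L1PA7 fragment outside genes (chr1:43094294-43095606, plus strand) overlapped between groups at 3.01 ± 1.26 and 5.58 ± 1.59 CPM. An L1PA13 among the F8A and H2AB repeats of the X chromosome (chrX:155353408-155359891, plus strand) went from 0.770 ± 0.425 to 1.86 ± 0.446 CPM with 0% of its counts uniquely mapped.

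Host genes were set beside the elements they contain. Of the 276 tested members inside a same-strand gene, 215 had 1 host gene that could be tested, in 186 different genes. The median log2 change was 0.38 for these members and 0.29 for their hosts, while that of all 13300 genes was 0.11. The element was above 0 in 172 of the 215 pairs, the host in 190 and both in 158. With each so often above 0, the joint count alone does not show that element and host move together. Across the 215 pairs the changes had a Spearman correlation of 0.28 and a Pearson correlation of 0.29. The pairs share libraries and, within a gene, reads, so this describes the values only.

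On the opposite strand the members summed to 741, 622 and 624 CPM in Clover and 737, 808 and 849.7 CPM in Z18trunc. The groups overlapped because Clover replicate 1 lay within the Z18trunc range (log2 ratio 0.27, exact permutation p = 0.2). By subfamily, edgeR called 7 of the 18 higher on the opposite strand, where 12.6% of all subfamilies passed. These were L1PA2, L1PA3, L1PA4, L1PA5, L1PA7, L1PA11 and L1PA16, with log2 changes of 0.24 to 0.38. L1HS had 8.48 ± 1.15 CPM in Clover and 10.4 ± 0.704 CPM in Z18trunc there (SD, n = 3 each) and did not pass (edgeR adjusted p = 0.14). The median log2 change there was 0.29 over the 18 subfamilies and 0.25 over all 903 tested. At single loci 0 of 364 members passed by edgeR, and 0.0575% of all loci did. The unadjusted p was under 0.05 for 52 members that were higher and 1 that was lower, beside 931 higher and 191 lower of all 12170 loci. The median log2 change was 0.34 over these members and 0.17 over all loci.

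Strand balance differed between subfamilies. Over all libraries, own-strand counts were 4.10 times the opposite-strand counts for L1HS, 2.31 times for L1PA2, 0.754 times for L1PA3 and 0.834 times for L1PA5. The ratio did not follow the age of the subfamily. It was 1.90 for L1PA4, 0.225 for L1PA11, 4.39 for L1PA12 and 11.2 for L1PA15-16, the last 2 above L1HS. The examples that follow are full-length loci with high opposite-strand levels, each inside a gene on the other strand. An L1PA3 in IARS1, the isoleucyl-tRNA synthetase gene (chr9:92214409-92220428, plus strand, gene on the minus strand), had 17.5, 20.3 and 16.1 CPM on the opposite strand in Clover and 16.7, 18.9 and 24.7 CPM in Z18trunc. L1PA6 elements in MRPS5, a mitochondrial ribosome gene (chr2:95092744-95098852, plus strand), and in FDFT1, the squalene synthase gene on chromosome 8, had 12.3 ± 0.744 and 10.5 ± 0.958 CPM in Clover and 12.1 ± 0.528 and 11.7 ± 0.882 CPM in Z18trunc (SD, n = 3 each). In all 3 the groups overlapped.

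Where along the element the opposite-strand fragments lay was examined after their values had been seen. Only loci whose fragments covered a stretch of at most 1000 bp in a library could be placed, which held 13.6% of opposite-strand and 9.21% of own-strand counts of full-length members. On the opposite strand the first 500 bp held such a stretch at 77, 85 and 77 loci in the Clover libraries and 75, 69 and 57 loci in the Z18trunc libraries. The next 500 bp held 40, 18 and 22 loci and 25, 26 and 26 loci. On the own strand the first 500 bp held 8 to 12 loci per library, and the numbers were larger toward the 3′ end, with 71 to 98 loci between 5000 and 5500 bp. On the opposite strand too the numbers toward the 3′ end were close to those of the first window, with 71, 87 and 46 loci in Clover and 50, 48 and 80 in Z18trunc between 4500 and 5000 bp, and 59, 69 and 73 against 66, 49 and 73 between 5000 and 5500 bp. In Z18trunc replicate 3 the first window was below 5 later ones.

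The first 500 bp held 8.95% to 14.9% of the placed opposite-strand loci per library and 1.62% to 2.29% of the placed own-strand loci. For L1HS, L1PA2 and L1PA3 together the opposite-strand share was 10.5% to 19.6%, and for L1PA4 to L1PA17 it was 7.37% to 10.0%. Without any annotated gene on the strand read, it was 5.61% to 14.8%. In these last 2 sets the first window was not the one with the highest mean in either group. Among the 69 older L1 loci placed on the opposite strand the share was 5.56% to 33.3% per library. Over all full-length members, the number of opposite-strand loci in the first 500 bp was lower in every Z18trunc library than in any Clover library. Their share overlapped between groups (exact permutation p = 0.5), lowest in Z18trunc replicate 3, the library with the most loci detected. For L1PA4 to L1PA17, for loci without a gene on the strand read and for older L1, the number overlapped as well. As examples, an L1PA2 in BBOX1-AS1 (chr11:27219704-27225730, plus strand) had 0.644, 1.34 and 1.43 CPM on the opposite strand in Clover and 0.718, 1.37 and 0.857 CPM in Z18trunc, and an L1PA2 on chromosome 1 (chr1:60640013-60646037, plus strand), opposite to LINC01748, had 0.312, 0.209 and 0.357 CPM against 0.0445, 0.165 and 0.0476 CPM. The Z18trunc values of the chromosome 1 element were at or below the limit that a count of 0 allows. An L1PA2 on chromosome 21 (chr21:33925607-33931606, minus strand) had 2.94, 2.51 and 2.495 CPM in Clover and 2.98, 2.98 and 2.57 CPM in Z18trunc, with overlap. These examples were chosen after their values were seen.

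**Figure D4:**
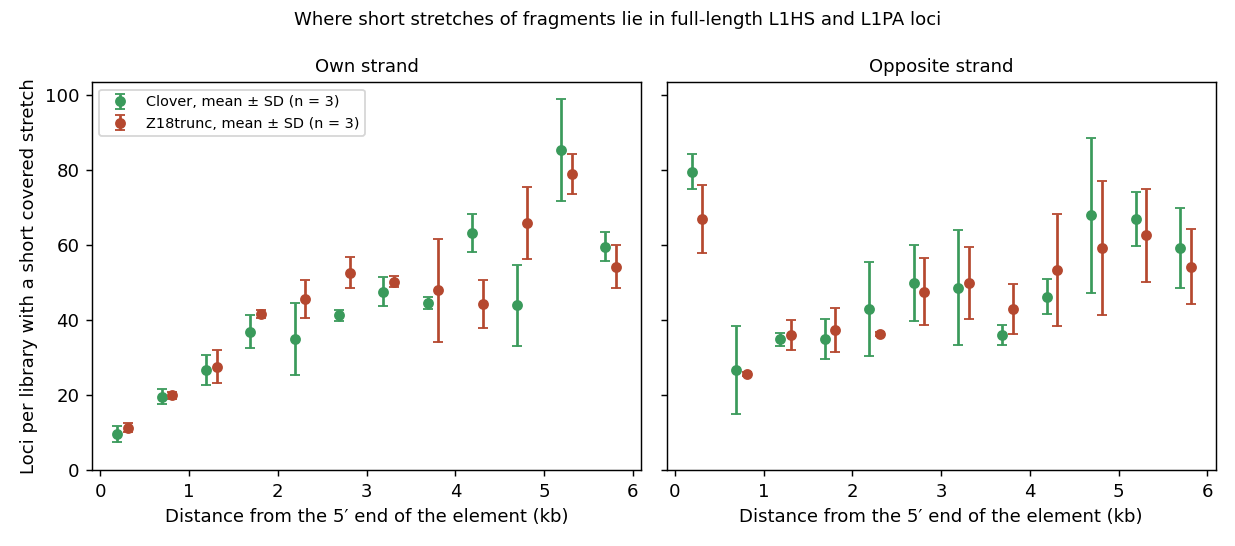
Number of full-length loci per library (vertical axis) whose fragments covered a single stretch of at most 1000 bp, by the distance of its middle from the element's 5′ end (horizontal axis, kb, windows of 500 bp, the last open to the 3′ end), for own-strand fragments at the left and opposite-strand fragments at the right. Points are means of 3 libraries with SD. On the opposite strand the first window holds 79.7 ± 4.62 loci in Clover and 67.0 ± 9.17 in Z18trunc, 26.7 ± 11.7 and 25.7 ± 0.577 in the next, and close to the first again toward the 3′ end, with 68.0 ± 20.7 and 59.3 ± 17.9 at 4500 to 5000 bp and 67.0 ± 7.21 and 62.7 ± 12.3 at 5000 to 5500 bp, whereas on the own strand the first window is the lowest.

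Genes known to restrain or drive LINE-1 were compared from a list of 42, covering the HUSH silencing complex and its partners, NEXT and PAXT subunits, DNA methylation, APOBEC3 enzymes, other restriction factors and activators. Of the 41 tested, ZC3H18 passed (limma log2 change 3.72, SE 0.09, adjusted p = 3.21e-05), part of which the construct also encodes, and no other did. Over all 13300 genes 0.015% passed. At an unadjusted p under 0.05, 14 of the listed genes were higher and 0 lower, and 3404 and 386 of all genes. After quantile normalization, which removes a shift of all genes, the listed counts were 8 and 2 and those of all genes 1708 and 1448.

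Among NEXT subunits, RBM7 had 10.1 ± 0.544 TPM in Clover and 13.2 ± 0.465 TPM in Z18trunc and ZCCHC8 had 6.21 ± 0.668 and 8.66 ± 0.635 TPM (SD, n = 3 each; limma adjusted p = 0.077 and 0.078). SP1, a transcription factor, had 26.7 ± 3.30 and 38.2 ± 0.284 TPM (limma adjusted p = 0.077). YY1, whose site the L1 5′ end carries, had 45.5 ± 3.38 and 52.5 ± 0.599 TPM (limma adjusted p = 0.15). The HUSH gene TASOR had 7.92 ± 1.58 and 10.3 ± 1.20 TPM, and APOBEC3C and MOV10 had log2 changes of 0.0005 and -0.0035.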

How the data were processed

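The authors trimmed reads with cutadapt 4.6 (submitters' processing notes), used hg38 and ran SQuIRE on the RepeatMasker annotation. The deposited TE tables hold, per locus and strand, uniquely mapped counts (not normalized) and estimated counts after multiply mapped fragments were shared. Their aligned-fragment number is the library size here. The deposited divergence score (RepeatMasker mismatches per 1000 bases) was used as given. The deposited FPKM and SQuIRE confidence score values of the TE tables and the coverage and FPKM values of the authors' gene tables were not used. The authors' gene tables gave TPM, summed by symbol. Estimated counts were rounded and tested with edgeR 4.0.16 (quasi-likelihood, R 4.3.3), at least 30 counts over the 6 libraries, with Benjamini-Hochberg adjustment across every LINE, SINE, LTR and DNA locus or subfamily tested. Genes of mean TPM 1 or more were tested with limma 3.58.1 on log2(TPM + 1), where a change understates that of low genes. Sums were compared by exact permutation tests over libraries, with 0.05 as threshold elsewhere. Gene spans came from the deposited tables, exons and introns from GENCODE 44 (bedtools 2.31.1), and sequences from hg38 (pysam 0.24.0). On ribosomal RNA repeats, 99.6% to 99.8% of counts lay on their own strand. The fits were tested on simulated data. Libraries numbered as replicates differed by more than counting noise (chi-square per locus 1.62 to 1.91). P-values measure the spread between these lines and libraries.

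Loci named were the 8 full-length loci and the 5 full-length L1HS loci with the highest own-strand mean CPM, the 10 members with the smallest p, those in TTC28 and MET and the 3 full-length loci with the highest opposite-strand mean CPM, of which 1 is not reported here. Control genes named were those that passed and the 3 with the smallest p, and the other genes named were chosen after their values were seen. Members, lists and rules were chosen with earlier results of these data known. Alternatives were TMM and DESeq2 1.42.0 scaling, count minimums of 10, 100 or none, uniquely mapped counts, a 6000 bp limit, a replicate block, loci outside exons, a pseudocount of 0.1, quantile normalization and leaving out each library.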

Additional observations from a re-analysis of the deposited data

How the results depend on the processing

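The own-strand sums of all members and of full-length loci stayed higher in Z18trunc without overlap under the alternatives run on them, with log2 ratios of 0.16 to 0.44 and 0.22 to 0.49. TMM, DESeq2 and opposite-strand library sizes were applied in tests of loci and subfamilies only. Opposite-strand TE counts outside exons were 200561 to 274396 in Clover and 247727 to 308970 in Z18trunc. Set against them, both sums overlap between groups. Whether the sums stay apart under TMM or DESeq2 was not tested. Member counts against older L1 overlapped between groups with uniquely mapped counts (0.077) and without loci overlapping exons (0.079), and leaving out a library gave 0.0549 to 0.1185. Full-length against shorter loci also overlapped there (0.0082 and 0.0559). Young against old L1PA was -0.0049 without the 10 most abundant loci and 0.0267 to 0.0817 without 1 library, and full-length own against opposite strand 0.0514 to 0.2024. For young against old the groups ceased to overlap without Clover replicate 1 or Z18trunc replicate 1, and for the strands without Z18trunc replicate 2.

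The number of loci that passed, 4, was 0 under TMM, both DESeq2 size factors, uniquely mapped counts, opposite-strand library sizes and on the opposite strand, 2 with no count filter, and 0 to 1 without 1 library. The number of subfamilies, 2, was 0 under TMM, DESeq2's own size factors, opposite-strand library sizes and the replicate block, 6 with no filter, 7 with uniquely mapped counts, 7 on the opposite strand, and 0 to 13 without 1 library. L1HS was not among the 7 with uniquely mapped counts (edgeR adjusted p = 0.056). The listed control gene that passed was 1 throughout.

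Replicate numbers did not pair the libraries (correlations of deviations -0.007, -0.015 and -0.039). A replicate block gave 5 loci and 0 subfamilies.

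Subfamily log2 changes that turned negative were, with opposite-strand library sizes, L1PA6 -0.038, L1PA8 -0.0329, L1PA11 -0.1009, L1PA14 -0.0332, L1PA15 -0.0381 and L1PA17 -0.1657. With TMM they were L1PA11 -0.0176 and L1PA17 -0.083, with DESeq2's own size factors L1PA11 -0.028 and L1PA17 -0.0898. Without Z18trunc replicate 3 L1PA11 was -0.0254, and 0.3191 without Z18trunc replicate 2. The causes were not tested. Depth limits single loci: 462 of 14354 own-strand members reached 30 counts.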
